A study of Mus musculus with 22 samples.

Results

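The secretoglobin genes Scgb1a1, Scgb3a1, Scgb3a2 and Scgb1c1 were followed through 22 libraries of mouse lung epithelium. These 4 genes were taken by symbol, and each of them was present in all libraries, among 13750 genes at E18.5, a late embryonic stage, and 15958 genes at 6 months. No other gene whose symbol begins with Scgb or Abp was among the measured genes, although the annotation lists 69 genes named Scgb. The study asked how the long noncoding RNA NANCI and its neighbour Nkx2-1, which encodes the homeodomain factor that gives lung epithelium its identity, together hold Nkx2-1 expression steady.

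Secretoglobins are small secreted proteins that pair into disulfide-linked dimers and are released into the fluid that lines the airways. Scgb1a1 encodes the club cell secretory protein (CC10), the main product of club cells, which are the non-ciliated secretory and progenitor cells of the bronchioles. Scgb3a2 is switched on earlier in airway development than Scgb1a1, and the promoters of both genes are known targets of NKX2-1. Scgb3a1 is produced by secretory cells of the larger airways and submucosal glands, often beside the gel-forming mucin Muc5b. Scgb1c1 is known from nasal and olfactory mucosa and is not a usual marker of club cells.

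The E18.5 libraries form 4 groups of 3. The WT group is NANCI-+/+, the NANCI group has the NANCI-CreERT2:RFP allele in 2 copies, the Nkx group has the Nkx2.1-GFP allele in 1 copy, and the Double group has 1 copy of both alleles. At 6 months there were 3 WT, 3 Nkx and 4 Double libraries. The alleles are named for a tamoxifen-inducible Cre recombinase with a red fluorescent protein, and for a green fluorescent protein; no tamoxifen treatment is given in the labels. The E18.5 cells were pulled down on magnetic beads for the epithelial surface protein EpCAM. The 6-month cells were sorted as EpCAM+, CD45- and CD31-, a gate against leukocytes and endothelial cells. Whether replicates are separate animals is not given in the labels, so each p-value reflects only the spread among these libraries, which may be technical in part. Age and enrichment differ together and each age was normalized on its own, so no value was tested between the ages.

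Values are the deposited log2 expression, quantile-normalized within each age, so that every library has nearly the same set of values and a gene's value reflects its rank among all genes. Read totals are unknown; the number of distinct values at or below the median, a stand-in for depth, was 209 to 284 in the embryos and 128 to 382 in the adults. Nkx2-1 itself did not pass in any comparison, with log2 differences from WT of 0.068 ± 0.14 in Nkx and 0.059 ± 0.14 in Double at E18.5, and −0.52 ± 0.17 and −0.35 ± 0.16 at 6 months (± SE). By Xist and Y-linked genes, all 3 NANCI libraries were of male pattern and all 4 Double libraries at 6 months of female pattern, while 2 of 3 WT libraries at 6 months were male. The E18.5 Nkx library called male (replicate 3) held Xist at 11.34 beside a Y-linked mean of 12.22, so it goes with neither pattern cleanly. The same holds for 6-month WT replicate 2, also called male, with Xist at 9.64 beside a Y-linked mean of 10.14. Some of the results that the sex imbalance touches are given within 1 sex pattern as well. Scgb1a1 and Scgb1c1 in NANCI and the 6-month Double against Nkx differences are not.

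On GRCm38, Scgb1a1 (ENSMUSG00000024653) lies on the minus strand of chromosome 19, from 9083636 to 9087958, and has 3 exons. Scgb3a1 (ENSMUSG00000064057) lies on the plus strand of chromosome 11, from 49663610 to 49665118. Scgb1c1 (ENSMUSG00000038801) lies on the plus strand of chromosome 7, from 140845547 to 140846769. Scgb1c1 overlaps the antisense genes C330022C24Rik and Gm45785, and since it is not stated whether reads kept their strand, reads from that strand may be counted in its value. The other members overlap no annotated gene; the coordinates of Scgb3a2 (ENSMUSG00000038791) are not reported here.

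RefSeq promoter windows on GRCm38.p6 were matched for 2 of the 4 members, Scgb3a1 and Scgb1c1, whose expression went opposite ways in Nkx and Double embryos. They are shown up to the first annotated base of the gene, on the plus strand, with chr11:49663345-49663594 for Scgb3a1 and chr7:140845315-140845546 for Scgb1c1. Capitals mark matches, on either strand, to CTCAAG (an NKX2-1 type motif) and TGTTTGC (a forkhead type motif).
Scgb3a1: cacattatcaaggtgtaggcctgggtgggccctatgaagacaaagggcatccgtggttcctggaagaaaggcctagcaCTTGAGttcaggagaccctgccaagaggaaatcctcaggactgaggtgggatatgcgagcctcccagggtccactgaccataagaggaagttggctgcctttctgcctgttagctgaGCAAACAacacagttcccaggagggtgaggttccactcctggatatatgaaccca
Scgb1c1: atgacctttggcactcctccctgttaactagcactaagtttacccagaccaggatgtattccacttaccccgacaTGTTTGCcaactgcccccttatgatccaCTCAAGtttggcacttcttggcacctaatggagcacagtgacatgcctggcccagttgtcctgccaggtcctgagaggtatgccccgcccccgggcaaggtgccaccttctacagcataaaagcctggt
In Scgb3a1 the CTCAAG match was on the minus strand, ending 167 bases before the RefSeq start, and the TGTTTGC match on the minus strand, ending 49 bases before it. In Scgb1c1 both matches were on the plus strand, with CTCAAG ending 142 and TGTTTGC ending 169 bases before the start. CTCAAG was held by 13.3% and TGTTTGC by 4.3% of 32851 promoter windows cut to 250 bases, and by 12.6% and 4.04% of windows cut to 232 bases. The forkhead type letters TGTTTAC and TATTTAC and the C/EBP type letters TTNNGNAA were not in either window. They were held by 3.17%, 2.73% and 36.8% of the 250-base windows. The 2 motifs marked do not overlap. These matches describe letters in the windows and not binding.

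Scgb1a1 fell at E18.5 in embryos with 1 copy of Nkx2.1-GFP and stood lower still in Double embryos. On the log2 scale the WT libraries read 15.87, 16.72 and 15.44, the NANCI libraries 15.93, 15.4 and 15.95, the Nkx libraries 14.81, 14.16 and 13.79, and the Double libraries 13.36, 12.57 and 12.8. Every Nkx library lay below every WT and NANCI library, and every Double library lay below every Nkx library. Scgb1a1 ranked 16 to 75 from the top of 13750 genes in WT, 145 to 423 in Nkx and 659 to 1437 in Double libraries.

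Against WT, the log2 difference of Scgb1a1 was −1.76 ± 0.33 in Nkx (limma adjusted p = 0.00762), or 3.38-fold lower, and −3.1 ± 0.33 in Double (adjusted p = 0.000128), or 8.58-fold lower. Between the 2 female-pattern libraries of each group the differences were −1.6 (adjusted p = 0.419) and −3.12 (adjusted p = 0.0516). Double lay below Nkx by a further −1.34 ± 0.33, in 3 of 3 libraries, but the difference did not pass over all genes (adjusted p = 0.57). That fit did not pair the libraries. No alternative fit passed either, the replicate block among them (limma adjusted p of 0.404 or more). In bulk RNA, fewer cells of a type and less RNA per cell cannot be told apart, here and in the results that follow.

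Scgb3a2, the other abundant secretoglobin of the fetal airway, was higher in Nkx and Double embryos where Scgb1a1 was lower. Log2 values were 16.77, 16.77 and 16.41 (WT), 17.03, 16.11 and 17.03 (NANCI), 17.67, 17.67 and 17.35 (Nkx), and 17.08, 17.5 and 17.35 (Double). All Nkx and Double libraries lay above all WT libraries, at ranks 6 to 11 from the top against 15 to 23. So near the top the values are steps of rank. WT replicates 1 and 2 both read 16.77 at rank 15, and Nkx replicates 1 and 2 both read 17.67 at rank 6. Such a step depends on the other top genes. The difference from WT was 0.92 ± 0.25 in Nkx (limma adjusted p = 0.0418) and 0.66 ± 0.25 in Double (adjusted p = 0.0988). The Nkx call was narrow: it ended when any 1 of the 6 libraries was left out (adjusted p = 0.0601 to 0.128).

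Scgb3a1, the larger-airway member, had the widest spread between WT libraries of the 4 genes. WT libraries had 6.03, 9.65 and 8.89, NANCI libraries 10.49, 8.9 and 9.91, Nkx libraries 12.41, 10.26 and 10.34, and Double libraries 10.35, 11.22 and 10.75. The Nkx and Double libraries all lay above the WT libraries, and WT replicate 1, at 6.03, stood apart from the other WT libraries. Scgb3a1 was higher than WT by 2.58 ± 0.8 in Double (limma adjusted p = 0.049) and by 2.81 ± 0.8 in Nkx, which did not pass (adjusted p = 0.0535). Without WT replicate 1 the differences were 1.51 in Double (adjusted p = 0.173) and 1.73 in Nkx (adjusted p = 0.177). The Double call also ended without any 1 of the Double libraries (adjusted p = 0.0674 to 0.144).

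Scgb1c1 was low in expression and fell. Values ran 7.63, 7.62 and 6.41 for WT, 6.72, 6.72 and 7.39 for NANCI, 5.09, 4.67 and 4.48 for Nkx, and 5.65, 4.71 and 5.47 for Double. No Nkx or Double library reached the lowest WT or NANCI library, and none was at its library's lowest value. The difference from WT was −2.47 ± 0.41 in Nkx (limma adjusted p = 0.00323) and −1.94 ± 0.41 in Double (adjusted p = 0.00708). Between female-pattern libraries it was −2.14 (adjusted p = 0.39) and −1.84 (adjusted p = 0.273).

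**Figure D1:**
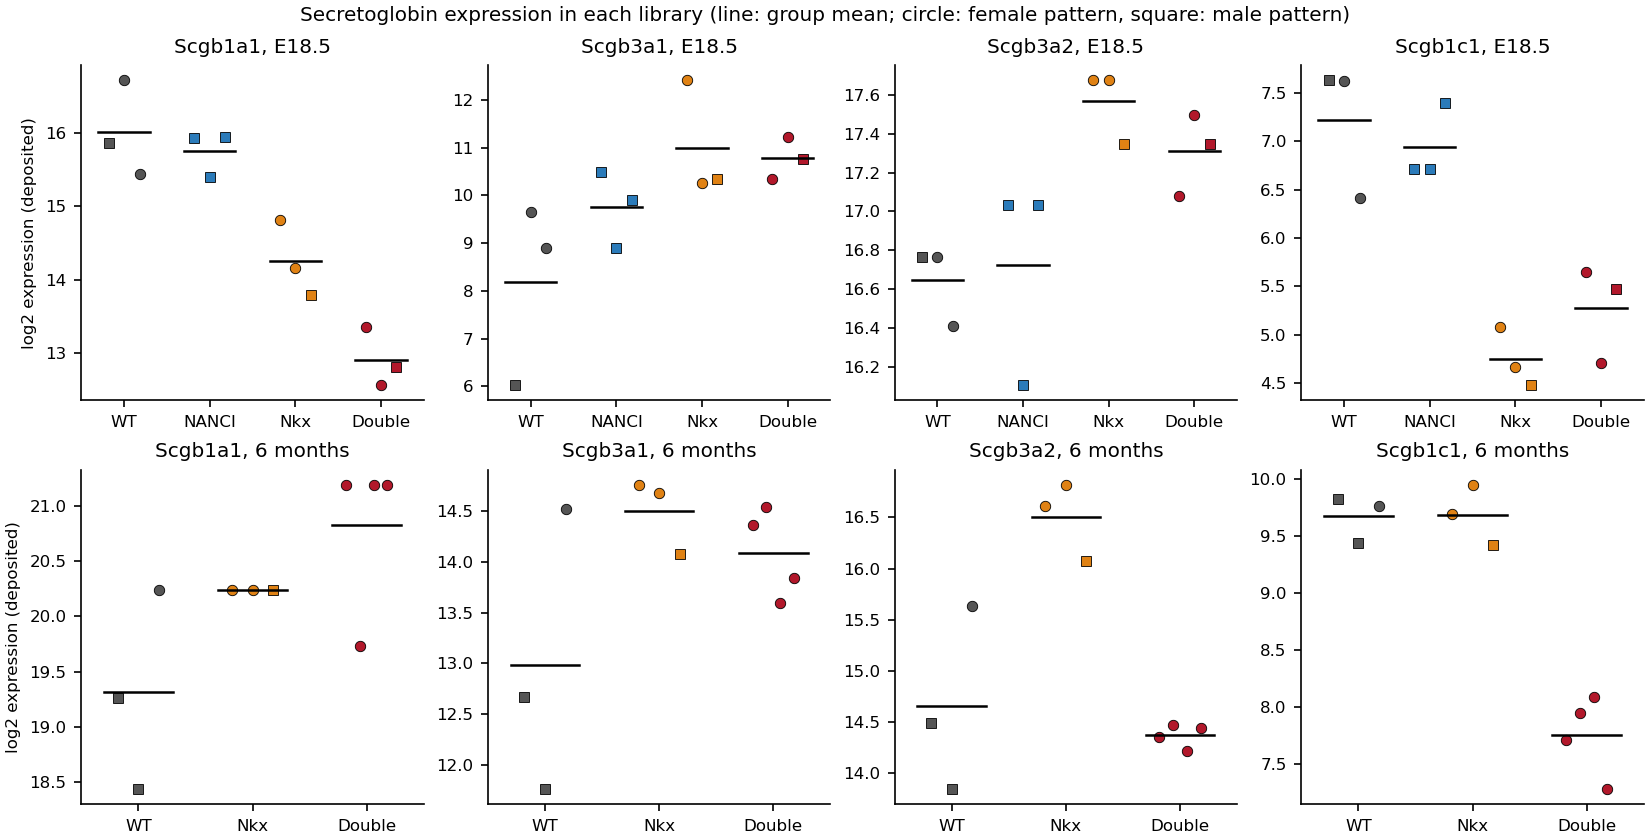
Log2 expression (y axis, a separate range in each panel) of the 4 secretoglobins by genotype group (x axis), at E18.5 in the upper and at 6 months in the lower row. Points are libraries, circles of female and squares of male pattern, and lines are group means; Scgb1a1 steps down from WT to Nkx to Double at E18.5 and is at or near the top of the scale at 6 months.

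By group mean, Scgb1a1 at E18.5 ran from WT through NANCI and Nkx to Double, and the WT and NANCI libraries overlapped while the later steps did not. Scgb1c1 ran from WT through NANCI and Double to Nkx, with overlap between WT and NANCI and between Double and Nkx. Scgb3a2 and Scgb3a1 ran the other way, from Nkx through Double and NANCI to WT. For these 2 genes Nkx overlapped Double and NANCI overlapped WT, and for Scgb3a1 Double also overlapped NANCI.

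In E18.5 Nkx against WT, 3 of the 4 secretoglobins passed, where 7.32% of all genes passed, and 4 of 4 had groups that did not overlap, where 22.2% of all genes did so. In Double against WT, 3 of 4 passed, where 14.6% of all genes passed, and 4 of 4 did not overlap, where 27.2% did so. Both comparisons use the same WT libraries. The members were chosen with earlier results of these data known, so their counts at either age are no independent evidence. In Double against Nkx, 0 of 4 passed in limma, where 0.00727% of all genes passed, and 1 of 4 did not overlap (Scgb1a1), where 8.6% did so; Scgb1a1 was also the 1 member with an unadjusted p under 0.05. The other 3 differed by −0.26 ± 0.25 (Scgb3a2), −0.23 ± 0.8 (Scgb3a1) and 0.53 ± 0.41 (Scgb1c1). With 3 libraries against 3, an exact permutation test cannot go below p = 0.1, and it gave that value for each member in Nkx and in Double against WT.

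With 2 copies of the NANCI allele, the libraries overlapped WT for every secretoglobin. In NANCI against WT, 0 of 4 passed in limma and 0 of 4 had an unadjusted p under 0.05, where 0% of all genes passed and 426 genes had an unadjusted p under 0.05. None of the 4 had groups that did not overlap, where 6.27% of all genes did so. The differences were −0.25 ± 0.33 for Scgb1a1 (95% confidence interval −0.98 to 0.47), 0.076 ± 0.25 for Scgb3a2 (−0.46 to 0.61), −0.28 ± 0.41 for Scgb1c1 (−1.16 to 0.6) and 1.58 ± 0.8 for Scgb3a1 (−0.17 to 3.32). Among male-pattern libraries alone, which leaves WT replicate 1 as the only WT library, Scgb3a1 was higher by 3.73; with 1 WT library this is a value with no spread of its own arm.

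**Figure D2:**
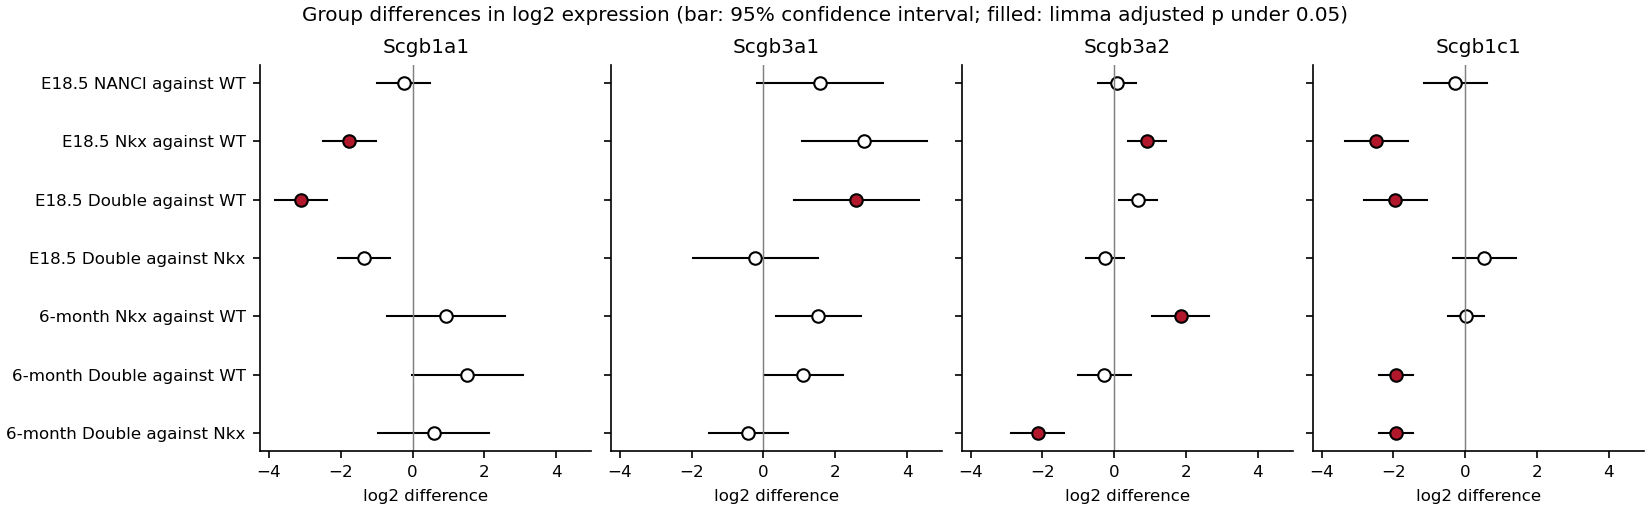
Log2 differences (x axis) of each secretoglobin in the 7 comparisons (y axis), with 95% confidence intervals as bars and filled points where the limma adjusted p was under 0.05. At E18.5 Scgb1a1 lies below 0 in Nkx (−1.76) and Double (−3.1) against WT while Scgb3a2 lies above 0 (0.92 and 0.66).

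Because Scgb1a1 and Scgb3a2 went apart at E18.5, the difference between them was taken within each library, where gene length cancels between groups. Scgb3a2 minus Scgb1a1 was 0.64 ± 0.51 in WT and 0.97 ± 0.22 in NANCI libraries, and 3.31 ± 0.39 in Nkx and 4.4 ± 0.62 in Double libraries (log2, SD, n = 3 each). It ranged from 0.05 to 0.97 in WT, from 2.86 to 3.56 in Nkx and from 3.72 to 4.93 in Double, so that these 3 groups did not overlap. The difference was chosen for how these genes moved, so it is given as a description with no test.

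At 6 months the same difference was negative in every library. It was −4.66 ± 0.1 in WT (n = 3), −3.74 ± 0.39 in Nkx (n = 3) and −6.46 ± 0.8 in Double libraries (n = 4). The Nkx libraries lay above and the Double libraries below all WT libraries. Scgb3a2 minus Scgb3a1 was 0.28 ± 0.38 in Double, 1.67 ± 0.51 in WT and 1.99 ± 0.14 in Nkx libraries at 6 months.

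**Figure D3:**
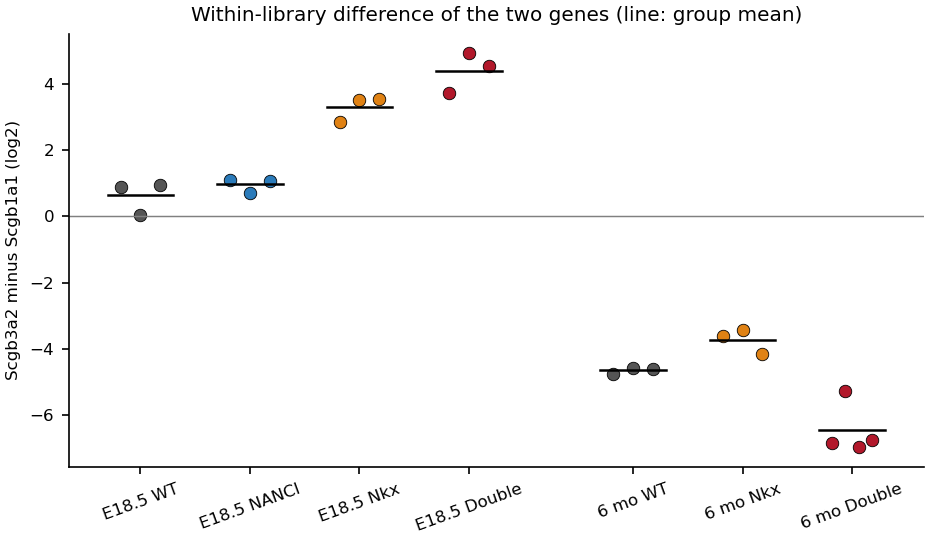
Scgb3a2 minus Scgb1a1 within each library (y axis, log2) by age and genotype group (x axis); points are libraries and lines are group means. The means rise from 0.64 in WT to 4.4 in Double at E18.5, and at 6 months they are −4.66 in WT, −3.74 in Nkx and −6.46 in Double.

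In the adult, Scgb1a1 was among the most abundant transcripts in every library. WT libraries read 19.26, 18.44 and 20.24, each of the 3 Nkx libraries 20.24, and Double libraries 21.19, 19.74, 21.19 and 21.19. These values are steps of rank: Scgb1a1 was the 4th, 8th and 2nd gene from the top in WT, the 2nd in all Nkx libraries, and the 1st in 3 Double libraries and the 3rd in Double replicate 2. In all WT and Nkx libraries and in Double replicate 2 the top gene was Sftpc, the surfactant protein C gene of alveolar type 2 (AT2) cells. A gene at the top cannot rise further on this scale, and its step of rank depends on the other top genes.

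Scgb1a1 did not pass at 6 months, with differences from WT of 0.93 ± 0.75 in Nkx (limma adjusted p = 0.502) and 1.52 ± 0.71 in Double (adjusted p = 0.115). WT replicate 3 lay with the Nkx libraries. Against that library, the only WT library of female pattern, Scgb1a1 was 0.59 higher in the 4 Double libraries, and the difference was 0 in the 2 Nkx libraries of that pattern. Without Double replicate 2 the Double difference was 1.88 (adjusted p = 0.0284).

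Scgb3a2 rose in 6-month Nkx libraries against WT and lay lower in Double than in Nkx libraries. Values were 14.49, 13.85 and 15.63 (WT), 16.61, 16.82 and 16.07 (Nkx), and 14.35, 14.47, 14.22 and 14.45 (Double). All Nkx libraries lay above all WT and Double libraries, and the Double libraries lay within the WT range. Nkx was higher than WT by 1.85 ± 0.36, or 3.6-fold (limma adjusted p = 0.0266), and Double was lower than Nkx by −2.13 ± 0.34, or 4.38-fold (adjusted p = 0.0014).

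Double against WT differed by −0.28 ± 0.34 for Scgb3a2 and did not pass (adjusted p = 0.55). Against the 1 female-pattern WT library, replicate 3, which was the highest of the WT libraries, the Double difference was −1.26 and the Nkx difference 1.09, given as values since that arm has no spread of its own. With sex pattern as a covariate, and WT replicate 2 counted as male, Double against WT was −0.99 (limma adjusted p = 0.0178). The Nkx call ended without WT replicate 1, WT replicate 2, Nkx replicate 1 or Nkx replicate 2 (adjusted p = 0.0679 to 0.123). Double against Nkx passed with any 1 library left out (−2.34 to −1.97).

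Scgb3a1 at 6 months read 12.67, 11.76 and 14.52 (WT), 14.76, 14.68 and 14.08 (Nkx), and 14.36, 14.55, 13.6 and 13.85 (Double). WT replicate 3 overlapped both other groups, and WT replicates 1 and 2 lay below them. The differences from WT did not pass in Nkx (1.53 ± 0.54, adjusted p = 0.142) or Double (1.1 ± 0.5, adjusted p = 0.108). Without WT replicate 3, the female-pattern library, they were 2.3 (limma adjusted p = 0.00904) and 1.88 (adjusted p = 0.00168). Against that library alone they were 0.2 and −0.44 in female-pattern libraries. Sex pattern and replicate cannot be told apart in that WT library.

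Scgb1c1 fell in 6-month Double libraries, against WT and against Nkx. WT libraries read 9.83, 9.44 and 9.76, Nkx libraries 9.69, 9.95 and 9.43, and Double libraries 7.71, 7.95, 8.09 and 7.28. The 4 Double libraries lay below every other library. The difference was −1.92 ± 0.21 against WT (limma adjusted p = 5.8e-05), or 3.79-fold lower, and −1.93 ± 0.21 against Nkx (adjusted p = 0.000202). Nkx against WT was 0.013 ± 0.23 (95% confidence interval −0.49 to 0.52). Against the 1 WT library of female pattern the Double difference was −2.01.

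Counted together at 6 months, 1 of 4 members passed in Nkx against WT, where 2.63% of all genes passed. In Double against WT 1 of 4 passed, where 36.3% of all genes passed, so this count is near the background. In Double against Nkx 2 of 4 passed, where 21.7% of all genes passed. Groups that did not overlap were seen for 1, 1 and 2 of the 4 members in these comparisons, where 30.5%, 40.1% and 31.8% of all genes did so.

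The ages differ in order as well as level, given here without a test. In WT libraries Scgb3a2 ranked 15 to 23 from the top at E18.5 and 58 to 313 at 6 months, while Scgb1a1 ranked 16 to 75 and 2 to 8. Scgb3a1 ranked 7415 to 12421 of 13750 genes at E18.5 and 167 to 2211 of 15958 at 6 months.

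Other genes of club cells went both ways at E18.5. Of 24 measured genes of a club cell list, 4 rose and 1 fell in Nkx against WT and 4 rose and 2 fell in Double against WT, with median log2 differences of 0.19 and −0.02 (0.02 over all genes in both). Over all genes, 3.67% rose and 3.65% fell in Nkx, and 7.13% rose and 7.47% fell in Double. The Double fall count of 2 became 1 without any 1 WT library or Double replicate 2, and the Nkx rise count of 4 became 1 without WT replicate 1 or without any 1 of the Nkx libraries. Upk3a, which marks a small set of club cells, fell by 2.28 ± 0.55 in Nkx (limma adjusted p = 0.026) and by 2.71 ± 0.55 in Double (adjusted p = 0.00619). Sec14l3, a lipid-binding protein gene, fell by 0.73 ± 0.2 in Double. The cholecystokinin receptor gene Cckar rose by 0.97 ± 0.21 and 0.88 ± 0.21, and the matrix protein gene Chad by 1.18 ± 0.29 and 1.64 ± 0.29. Aox3 (0.74 ± 0.17) and Retnla (0.998 ± 0.24) also rose in Nkx, and Lypd2 (2.09 ± 0.43) and Cyp2s1 (1.48 ± 0.28) in Double. Cyp2f2, the cytochrome P450 that is a standard club cell marker, differed by 0.27 and 0.2 and Cbr2, a carbonyl reductase, by 0.17 and −0.048, and neither passed.

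At 6 months, 5 of 26 club cell genes rose and 0 fell in Nkx against WT, and 13 rose and 1 fell in Double against WT (medians 0.64 and 0.61, and 0.01 and 0.06 over all genes). Over all genes, 1.52% rose and 1.11% fell in Nkx, and 18.4% rose and 17.9% fell in Double. The Nkx count of 5 was 0 without WT replicate 2, Nkx replicate 1 or Nkx replicate 2, 1 without WT replicate 1, 3 with Nkx replicate 3 left out and 8 with WT replicate 3 left out. In Nkx the risers included Retnla (3.99 ± 0.71), Chad (2.35 ± 0.46), the immunoglobulin receptor gene Pigr (2.21 ± 0.51) and Cckar (0.94 ± 0.18). In Double the largest were Retnla (8.13 ± 0.66), Pigr (4.02 ± 0.48), Chad (2.91 ± 0.43), the GABA receptor subunit gene Gabrp (2.72 ± 0.4) and Cyp2f2 (1.61 ± 0.42), and Sec14l3 fell by 0.75 ± 0.22, a call that ended without WT replicate 2 or 3. Mean club cell list expression was 12.79, 12.41 and 13.35 in WT libraries, and WT replicate 3 was the highest, as it was for Scgb1a1, Scgb3a1 and Scgb3a2. The range was 13.61 to 13.85 in Nkx and 13.73 to 14.13 in Double libraries. The club cell list was chosen with earlier results of these data known, so its counts at either age are no independent evidence.

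Goblet and mucous genes were also listed, among them Muc5b, beside which Scgb3a1 is often produced. Which cells made them here was not tested. At E18.5, 11 of 18 rose in Nkx, where 3.67% of all genes rose, and 13 of 18 in Double, where 7.13% rose, and 0 fell. At 6 months 7 of 19 rose in Nkx, where 1.52% of all genes rose, and 0 fell. That count was 1 without WT replicate 1, WT replicate 2, Nkx replicate 1 or Nkx replicate 2, 3 with Nkx replicate 3 left out and 12 with WT replicate 3 left out. In 6-month Double 16 of 19 rose, where 18.4% of all genes rose, and 1 fell, the airway antimicrobial gene Bpifa1 (−4.35). Medians were 2.29, 2.26, 1.35 and 3.05, in the order given. Spdef, the transcription factor gene of goblet cell fate, rose in all 4 comparisons (1.83 ± 0.44 and 2.18 ± 0.44 at E18.5, and 1.62 ± 0.21 and 2.6 ± 0.2 at 6 months). Muc5b rose by 4.1 ± 0.89 and 4.26 ± 0.89 at E18.5 and by 5.87 ± 0.46 in 6-month Double, while its difference in 6-month Nkx was 2 ± 0.49 (adjusted p = 0.0572) and did not pass. Tff2 and Gcnt3 were at the lowest value in all 3 E18.5 WT libraries, so no fold is given for them. Pigr is in both lists. In E18.5 NANCI against WT 0 of 18 goblet and mucous genes passed, while 17 of 18 lay above 0. Their median there was 0.59, against 0.013 over all genes. The rise of such genes in these data was known when the list was chosen, so its direction is no independent evidence.

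Regulators of secretoglobin genes and of club cell fate went both ways at E18.5. Of 21 measured, 3 rose and 1 fell in Nkx against WT, where 3.67% and 3.65% of all genes did so, and 5 rose and 2 fell in Double, where 7.13% and 7.47% did so (medians 0.04 and 0.06). The Nkx rise count was 1 without Nkx replicate 2 or 3, and the Double rise count 3 without Double replicate 1. The fall count in Nkx was 0 without WT replicate 1 or 2 or Nkx replicate 1 or 3. Cebpa, whose product C/EBPα acts on the Scgb1a1 promoter, fell by 0.75 ± 0.17 in Nkx (limma adjusted p = 0.0182) and by 1.02 ± 0.17 in Double (adjusted p = 0.00195), and Elf5 fell by 0.58 ± 0.11 in Double. The Notch receptor gene Notch3 (1.04 ± 0.19 and 1.32 ± 0.19) and the Notch target Hes1 (0.49 ± 0.13 and 0.53 ± 0.13) rose in both; Notch signals direct airway cells to the secretory fate. The pioneer factor gene Foxa1 (0.57 ± 0.13) and Rbpj, the nuclear effector of Notch (0.59 ± 0.18), rose in Double.

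At 6 months 1 of 22 regulators, Spdef, rose in Nkx and 0 fell, and 5 rose and 5 fell in Double against WT. In Double 18.4% of all genes rose and 17.9% fell, so these counts are near the background, and the rise count was 3 without WT replicate 2 or 3 or Double replicate 1 or 3. Those that fell in Double were the Notch targets Hey1 (−3.11 ± 0.31), Heyl (−2.17 ± 0.38) and Hes1 (−0.47 ± 0.16) and the ligand genes Jag2 (−1.57 ± 0.23) and Jag1 (−0.51 ± 0.13). Besides Spdef, Elf3 (1.27 ± 0.15), Elf5 (0.71 ± 0.15), Rbpj (0.47 ± 0.15) and Grhl2 (0.32 ± 0.12) rose. Cebpa differed from WT by −0.33 in Nkx and −0.33 in Double at 6 months and did not pass. Hey1 and Heyl are also expressed in vessel walls, and endothelial markers moved with them, as given below.

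Markers of other cell types also moved in some of these comparisons. At E18.5 the mean of 9 measured leukocyte markers was 6.84 to 7.17 in WT and 6.14 to 6.45 in NANCI libraries. It was 3.75 to 4.9 in Nkx and 3.76 to 4.59 in Double libraries. Of these markers 5 of 9 fell in Nkx, where 3.65% of all genes fell, and 8 of 9 in Double, where 7.47% fell. Adgre1, Cd53, Ctss or Fcer1g was at the lowest value in single Nkx or Double libraries. AT2 markers fell in 2 of 10 (Nkx) and 9 of 10 (Double), and their mean was 16.07 to 16.44 in WT, 15.31 to 15.76 in Nkx and 14.71 to 15.38 in Double. Of 10 ciliated cell markers, which share the airway wall with club cells, 0 passed in Nkx and 4 fell in Double. Alveolar type 1 (AT1) markers fell in 3 of 10 in both groups. Endothelial markers fell in 0 of 6 in Nkx and 2 of 6 in Double. Of 5 mesenchymal markers 0 passed in Nkx, and 1 rose and 2 fell in Double. Of 8 pan-epithelial markers 0 passed in Nkx and 3 rose in Double, where 7.13% of all genes rose. Of 5 neuroendocrine markers 1 rose in Nkx, where 3.67% of all genes rose, and 0 passed in Double. At 6 months 17.9% of all genes fell and 18.4% rose in Double against WT. There 10 of 10 ciliated, 8 of 10 AT2 and 5 of 10 AT1 markers fell. So did 8 of 9 mesenchymal and 7 of 7 endothelial markers, and 7 of 8 pan-epithelial markers rose. In 6-month Nkx against WT 0 of the ciliated, AT2, AT1, mesenchymal and endothelial markers passed, where 1.11% of all genes fell. In 6-month Double against Nkx, 9 of 10 ciliated, 6 of 10 AT2 and 6 of 10 AT1 markers fell, where 11.5% of all genes fell. There 5 of 9 mesenchymal and 7 of 7 endothelial markers also fell. The AT2 mean at 6 months was 17.51 to 17.72 in WT, 17.13 to 17.24 in Nkx and 15.28 to 16.35 in Double, and the AT1 mean 12.59 to 13.67, 13.34 to 14.01 and 11.88 to 12.49. The mesenchymal mean was 9.5 to 10.32 in WT, 8.89 to 9.48 in Nkx and 6.64 to 8.47 in Double, and the endothelial mean 11.24 to 12.47, 10.74 to 11.68 and 8.44 to 9.54. No mesenchymal or endothelial marker was at a library's lowest value. The leukocyte mean at 6 months was 6.94 to 7.49 in WT, 6.03 to 7.98 in Nkx and 6.25 to 9.24 in Double, highest in Double replicate 2. Of 13 leukocyte markers, 1 rose (Cd68, 1.64 ± 0.34) and 1 fell (Csf1r, −1.16 ± 0.19) in Double against WT. The part of these cells in the secretoglobin differences was not tested.

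**Figure D4:**
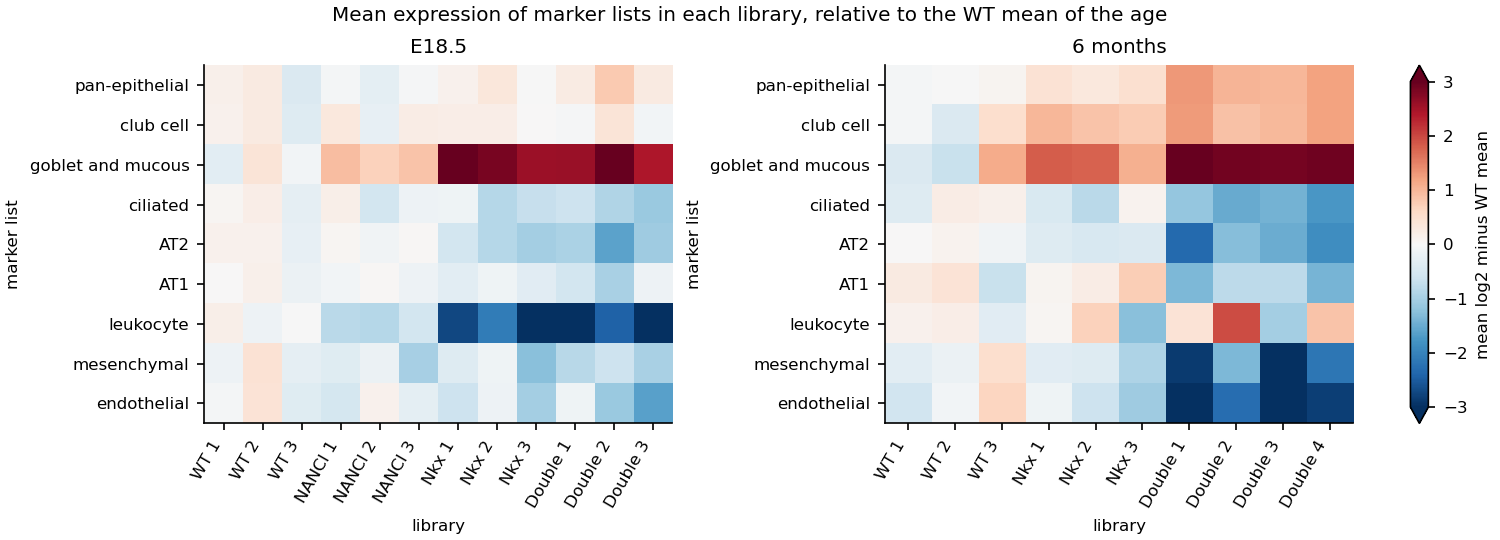
Mean log2 expression of 9 marker lists (y axis) in each library (x axis), minus the WT mean of the same age, shown as colour. At E18.5 leukocyte markers are lower in Nkx and Double libraries (3.75 to 4.9 against 6.84 to 7.17 in WT), and at 6 months mesenchymal and endothelial markers are lower in Double libraries while club cell and goblet lists are higher.

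The genes whose values ran most like each member differed between members and ages. Likeness was Pearson's r of log2 values over the 12 libraries at E18.5 or the 10 at 6 months, among 12341 and 13591 genes with a mean of at least 5; it is a description, and the libraries share their genotype groups. At E18.5 the genes most like Scgb1a1 were Atp6v1c2 (r = 0.99), a proton pump subunit gene, Npr1, Sema4f, Aebp1 and Dnaja4. Those most like Scgb3a2 included Dnajc5 (r = 0.94), Cckar, Igfbp5 and Sult2b1, and the gene most like Scgb3a1 was Muc5b (r = 0.96), followed by Plbd1, Leng8, Prrc2b and Mum1. Of the genes named here for these 3 members, Cckar is in the club cell list.

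Scgb1c1 at E18.5 ran most like Bex2 (r = 0.97), Slc6a9, Tsn, Napsa and Emc6. Napsa, whose protease processes surfactant protein B, is an AT2 marker and stood at 14.68 in WT, 14.47 in NANCI, 12.65 in Nkx and 12.45 in Double (group means). At 6 months the 5 genes most like Scgb1c1 were Tex11 (r = 0.99), Tcf21 (r = 0.99), Btbd3, Ube2e2 and Arl6ip1. Tcf21 encodes a transcription factor of lung mesenchyme and stood at 8.64 in WT, 8.46 in Nkx and 4.93 in Double. None of these 10 genes is in the club cell list.

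At 6 months the genes most like Scgb1a1 were Por (r = 0.96), the cytochrome P450 reductase gene of the club cell list, Mall, Zfp626, Csnk1g3 and Oasl1. Scgb3a1 ran most like Gp2 (r = 0.95), Ifitm1, Cldn10, Mgst1 and Vipr1, and the genes most like Scgb3a2 included Reg3g (r = 0.92), Maged2, Gnai3 and Jdp2. Gp2 and Reg3g are in the goblet and mucous list, and Cldn10 is in the club cell list. Like Scgb3a2, the antimicrobial lectin gene Reg3g was highest in Nkx libraries, with group means of 10.49 in WT, 11.84 in Nkx and 10.54 in Double.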

How the data were processed

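The submitters' processing notes name STAR (an aligner), limma and the build mm9, with no versions or roles; the gene filter and the library strand were not stated in the sources used here. Each deposited file gives a log2 value for every Ensembl gene ID of 1 library. These were taken as log2 expression quantile-normalized by the authors within each age, because libraries held nearly equal values rank by rank (median SD over ranks 0.00187 at E18.5 and 0.00242 at 6 months). Symbols came from GENCODE on GRCm38 by gene ID, for 99.2% and 96.2% of IDs.

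Groups were taken from the labels. For each age 1 model was fitted over all genes and libraries with limma 3.58.1 in R 4.3.3, with group as the factor and variances moderated by empirical Bayes along their trend with mean expression. Adjusted p is Benjamini-Hochberg over all genes, called under 0.05. Group levels are means ± SD and differences are given ± the limma standard error; a fold is the difference raised from the log2 scale. The fit was tested on simulated data. Exact permutation tests over libraries were two-sided; members were taken in 7 comparisons. The members and lists were chosen with earlier results of these data known. Named genes are the members, up to 5 passing genes of each list per comparison by size and the 5 most alike genes per member and age; any other named gene was chosen after its values were seen. Some genes that the rule names are not reported here. Same-numbered replicates were checked for pairing. The correlations of their deviations from group means were all over 0.1 in E18.5 Double against Nkx alone (0.18 to 0.504). In E18.5 Nkx against WT they were −0.178, 0.472 and 0.392 for replicates 1, 2 and 3. In E18.5 Double against WT they were −0.195, 0.454 and 0.0603. The differences, standard errors and permutation tests given for all comparisons nonetheless treat the libraries as unpaired. Replicate number entered as a block only among the alternatives. Alternatives were a minimum mean of 5, no trend, the 2 groups alone, replicate block, sex pattern or depth as a covariate, centring on housekeeping genes and leaving out each library; fits within 1 sex pattern were added after seeing the data.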

Additional observations from a re-analysis of the deposited data

Results flagged for a closer look

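In 6-month Double libraries, Scgb1a1 was lowest in replicate 2, at 19.74, while the other 3 libraries shared the top value of 21.19. The gap is the whole range of the group. The other 3 are tied at the top of the rank scale, so any library below the top would show such a gap, and this one is a step of 2 ranks.

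Scgb1a1 in Nkx and Double, and Scgb3a2 in Double, differed from WT with opposite signs at the 2 ages. For Scgb1a1 the Nkx difference was −1.76 at E18.5 and 0.93 at 6 months, and the Double difference was −3.1 at E18.5 and 1.52 at 6 months. For Scgb3a2 the Double difference was 0.66 at E18.5 and −0.28 at 6 months, and neither passed, while its Nkx difference was above 0 at both ages (0.92 and 1.85). None of the 6-month values of opposite sign passed, and the difference between the ages was not tested, since enrichment and normalization changed with age.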

How the results depend on the processing

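The 28 secretoglobin results were recomputed under 14 or 15 alternatives each, 400 recomputed values in all, of which 340 left direction and call as they were, and 10 results held under every alternative tried. The only calls among them were those of Scgb1c1 in 6-month Double against WT and against Nkx and of Scgb3a2 in 6-month Double against Nkx. The rest were differences that did not pass and stayed so under every alternative. The E18.5 calls of Scgb1a1 and Scgb1c1 ended only with the female-pattern libraries alone (2 per group): −1.6 and −2.14 in Nkx, and −3.12 and −1.84 in Double. Where a setting changed a result, the cause was not tested.

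For Scgb3a2 in E18.5 Nkx the difference stayed 0.92 while the call ended without the variance trend, with the 2 groups alone, with the replicate block (adjusted p = 0.0621) and with sex pattern as covariate; it was 0.73 with depth as covariate and 1.09 in female-pattern libraries. For Scgb3a1 in E18.5 Double it stayed 2.58 while the call ended with the minimum mean, without the trend, with the 2 groups alone and with the replicate block (adjusted p = 0.0693); it was 2.43 centred on housekeeping genes, 2.05 with depth and 1.52 in female-pattern libraries. Scgb3a1 in E18.5 Nkx passed with sex pattern, at 2.81. In NANCI, Scgb3a2 was −0.058 with depth and −0.044 in male-pattern libraries, and Scgb3a1 was 3.73 there, where WT is 1 library assumed to vary like the other groups; the same holds for the 6-month WT library of female pattern below. At 6 months in Nkx, Scgb3a2 stayed 1.85 while its call ended without the trend, with the 2 groups alone and with the replicate block (adjusted p = 0.0772), and was 1.09 in female-pattern libraries, where Scgb1a1 was 0. Scgb1c1 there was −0.074 with sex pattern, −0.10 with housekeeping centring and −0.070 with depth. In 6-month Double against WT, Scgb1a1 passed without the trend, at 1.52, Scgb3a2 passed at −0.99 with sex pattern and was −1.26 against the 1 female-pattern WT library, where Scgb3a1 was −0.44. The replicate block changed no other secretoglobin call. Same-numbered libraries went together by correlation for every replicate number in E18.5 Double against Nkx alone, and no secretoglobin passed there with the block. In E18.5 Nkx against WT they did so for replicates 2 and 3 (0.472 and 0.392). In E18.5 Double against WT they did so for replicate 2 (0.454).

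With each library left out in turn, values ran as follows. In NANCI, Scgb1a1 ran from −0.54 to 0.10 and Scgb3a2 from −0.078 to 0.38. In E18.5 Nkx, Scgb3a1 ran from 1.73 to 3.54, passing without WT replicate 2 or 3, and Scgb3a2 from 0.80 to 1.03. In E18.5 Double, Scgb3a1 ran from 1.51 to 3.31, and against Nkx from −0.60 to 0.47, where it turned without Nkx replicate 1. In 6-month Nkx, Scgb3a1 ran from 0.91 to 2.3, Scgb3a2 from 1.44 to 2.33 and Scgb1c1 from −0.12 to 0.14. In 6-month Double, Scgb1a1 ran from 1.08 to 1.98, Scgb3a1 from 0.49 to 1.88 and Scgb3a2 from −0.69 to 0.20, where it turned without WT replicate 3.

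Counts over all genes moved more. In E18.5 Nkx, 505 genes rose and 502 fell, against 5 and 0 in female-pattern libraries and 1165 and 1014 without WT replicate 3; in E18.5 Double 981 and 1027 became 57 and 27 in female-pattern libraries. In 6-month Nkx, 242 and 177 became 4 and 0, and in 6-month Double 2937 and 2858 became 1066 and 1231. Club cell genes that rose numbered 0 to 5 in E18.5 Nkx, 0 to 8 in 6-month Nkx and 5 to 14 in 6-month Double, and goblet and mucous genes 3 to 12 in E18.5 Nkx and 0 to 12 in 6-month Nkx. Depth could not be read from these values, and rank steps limit Scgb1a1 in the adult and Scgb3a2 at E18.5.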
